A study of Patiria miniata with 6 samples.

Results

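Pm-Ebr1, Pm-Vtgn1 and Pm-Vtgn2 are names given by the deposited annotation to an egg surface receptor and to yolk proteins of the bat star Patiria miniata. Members were taken as every locus whose gene name, after splitting joined names, was exactly one of these 3. The rule found 9 loci among the 80165 loci counted, 2 named Pm-Ebr1, 2 named Pm-Vtgn1 and 5 named Pm-Vtgn2, and all 9 passed the filter on low counts. Loci with related names, such as Pm-Ebr1_5 and Pm-Eggbr1L_1, are not members and are described separately. The names were chosen by a measured value, the difference between the groups in an earlier treatment of these same counts, where some of their loci had been called higher after knockdown. The difference between the groups is therefore given for the members as a description, with no test.

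The knockdown group held 3 libraries from embryos injected as zygotes with 600 µM of a morpholino (MASO), a synthetic antisense oligonucleotide that blocks translation or splicing, here directed at the T-box transcription factor Pm-Tbr, and taken at 36 hours post fertilization. The control group held 3 libraries from embryos injected with 600 µM of a standard control MASO and taken at 30 hours. All embryos were hatched blastulae grown in seawater at 15 °C, pooled after a sort on a rhodamine tracer and on healthy morphology, so arrested or misshapen embryos are not represented. Each group was taken at its own time of hatching, so an effect of age and one of the morpholino cannot be told apart. The labels do not say if the pools were separate spawnings, and p-values then cover only the spread of these libraries, which may be technical.

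Egg bindin receptor 1, known from sea urchins, is a large protein of the egg surface to which the sperm protein bindin attaches at fertilization. Vitellogenins are large lipid-carrying precursors of yolk that egg-laying animals load into the growing oocyte. They belong to the large lipid transfer protein family, together with apolipoprotein B and the microsomal triglyceride transfer protein, which loads lipid onto apolipoprotein B in vertebrates. In sea urchins the main yolk protein is not a vitellogenin but a transferrin-like protein, known as the major yolk protein.

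Counts assigned to loci were 17795136 to 28167566 in the Pm-Tbr MASO libraries and 25423004 to 26958581 in the control MASO libraries. Reads aligned to several places were in no locus and made up 43.4% to 45.2% of all lines, so sequence shared between copies of a gene is not in these values. A list of gene names typical of a blastula (hatching enzyme, SoxB, FoxA and other early regulators) held 10 names found among the loci, at 16 loci. Planned names without a match, such as FoxQ2 and Span, are not in it, so presence is no check of stage. The 16 loci summed to 3908 to 4823 CPM in Pm-Tbr MASO libraries and 5056 to 6331 CPM in control MASO libraries. CPM is the usual depth-scaled count, taken on adjusted library sizes. None of these 16 loci was called at an adjusted p of 0.05 by the quasi-likelihood test of edgeR, the exact test of edgeR or DESeq2. In the first test 5 had an unadjusted p under 0.05, against 8832 of all 44120 tested loci. In a fit with replicate number as a block 2 were called lower, where 10.1% of all tested loci were called. The sperm gene names Pm-Bindin and Pm-Odf2L summed to 45.2 to 63.5 CPM in Pm-Tbr MASO libraries and 49.9 to 69.8 CPM in control MASO libraries, and none of their 4 loci was called by any of these tests or had an unadjusted p under 0.05. Names of scavenger and Toll-like receptors, which mark coelomocytes in adults, summed to 894 to 1113 CPM in Pm-Tbr MASO libraries and 809 to 914 CPM in control MASO libraries, and 6 of their 51 loci rose in the quasi-likelihood test of edgeR, where 1.36% of all tested loci did. With the block 9 of the 51 were called higher and 2 lower, where 10.1% of all tested loci were called. The exact test called 8 of the 51 loci, against 2037 higher and 1357 lower of all 44120 tested loci. DESeq2 called 10 of the 51, against 2337 higher and 1793 lower of 39775. Each of the 6 calls in the quasi-likelihood test was kept in only 0 to 2 of the 6 fits with 1 library left out. The part of these sperm and coelomocyte names in the members' values was not tested.

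The main Pm-Ebr1 locus, on scaffold 3186 from 30204 to 70893 on the minus strand, was among the most heavily read loci of these embryos. It had 11150, 13014 and 8004 CPM in Pm-Tbr MASO replicates 1, 2 and 3, against 4845, 2646 and 3505 CPM in control MASO replicates 1, 2 and 3. Every knockdown library was above every control library, and the means were 10723 ± 2532 CPM in Pm-Tbr MASO embryos and 3665 ± 1108 CPM in control embryos (SD, n = 3 each). The fitted log2 fold change was 1.55 ± 0.29 (SE), or 2.93-fold higher in Pm-Tbr MASO embryos. In pooled embryos, more cells carrying a transcript and more of it per cell cannot be told apart. Ranked by counts alone, with no account of length, it stood at places 3 to 5 of 44120 tested loci in the knockdown libraries and at places 8 to 14 in the control libraries. Per kilobase of the locus span, introns included, it stood at places 15 to 32 in the knockdown libraries and 72 to 203 in the control libraries, among the 27630 loci with known positions. The 2 Pm-Ebr1 loci together took 1.05%, 1.41% and 0.827% of the assigned reads in Pm-Tbr MASO replicates 1 to 3, and 0.491%, 0.272% and 0.355% in control MASO replicates 1 to 3.

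The second Pm-Ebr1 locus lies on scaffold 24547 from 595 to 7648, also on the minus strand, in a different gene model. It had 220, 290 and 226 CPM in the Pm-Tbr MASO libraries, against 123, 42.7 and 83.2 CPM in the control MASO libraries. Again the groups did not overlap, and the log2 fold change was 1.57 ± 0.37. The main locus held 97.3% to 98.1% of all Pm-Ebr1 counts in knockdown libraries and 97.5% to 98.4% in control libraries, so the minor locus held a small share in every library. Whether the minor locus is a separate copy or a piece of the same gene cannot be told from these files.

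Pm-Vtgn1 took far fewer reads than Pm-Ebr1 and was nearly flat across the knockdown libraries. Its main locus, on scaffold 5245 from 1740 to 37686 and spanning 2 gene models, had 123, 136 and 128 CPM in the Pm-Tbr MASO libraries, against 32.4, 19.5 and 48.5 CPM in the control MASO libraries. The log2 fold change of 1.95 ± 0.33, or 3.85-fold, was the largest among the 9 member loci. The other locus, on scaffold 9614 from 5188 to 20591, had 75.2, 83.1 and 72.2 CPM in knockdown libraries, against 17.5, 13.7 and 31.8 CPM in control libraries, with a log2 fold change of 1.87 ± 0.33. Neither locus overlapped between groups, and in both the control replicates stood in the order 3, 1, 2 from high to low. These loci too may be pieces of 1 gene, so their agreement may not be independent. Counted together, Pm-Vtgn1 took 0.0205% ± 0.00248 of assigned reads in Pm-Tbr MASO libraries and 0.00541% ± 0.00234 in control MASO libraries (SD, n = 3 each).

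Pm-Vtgn2 was spread over 5 loci on 5 scaffolds, and all 5 were higher in Pm-Tbr MASO embryos. The main locus, on scaffold 5309 from 1191 to 25408 on the plus strand, had 243, 201 and 189 CPM in the Pm-Tbr MASO libraries, against 57.0, 107 and 54.6 CPM in the control MASO libraries. The highest control library, replicate 2, stayed below the lowest knockdown library, and the log2 fold change was 1.54 ± 0.30. The locus on scaffold 13575, from 186 to 21257, had 44.8, 53.7 and 51.4 CPM in knockdown libraries, against 12.5, 24.4 and 12 CPM in control libraries. Its log2 fold change was 1.62 ± 0.32, and the groups did not overlap.

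The 3 smaller Pm-Vtgn2 loci showed the same order of groups at lower levels. The locus on scaffold 3455, from 1 to 12265, had 26.3, 32.2 and 30.5 CPM in Pm-Tbr MASO libraries, against 7.67, 19.4 and 6.67 CPM in control MASO libraries. The locus on scaffold 15012, from 509 to 9118, had 18.9, 17.2 and 17.1 CPM in Pm-Tbr MASO libraries, against 4.26, 11.1 and 3.73 CPM in control MASO libraries. At both loci control replicate 2 was the control library closest to the knockdown values. The locus on scaffold 19094, from 1 to 5209, had 6.88, 10.5 and 10 CPM in Pm-Tbr MASO libraries, against 2.19, 4.88 and 2.19 CPM in control MASO libraries. The log2 fold changes of these 3 loci were 1.40 ± 0.41, 1.48 ± 0.43 and 1.57 ± 0.41. The loci on scaffolds 3455 and 19094 begin at the first base of their scaffold.

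**Figure D1:**
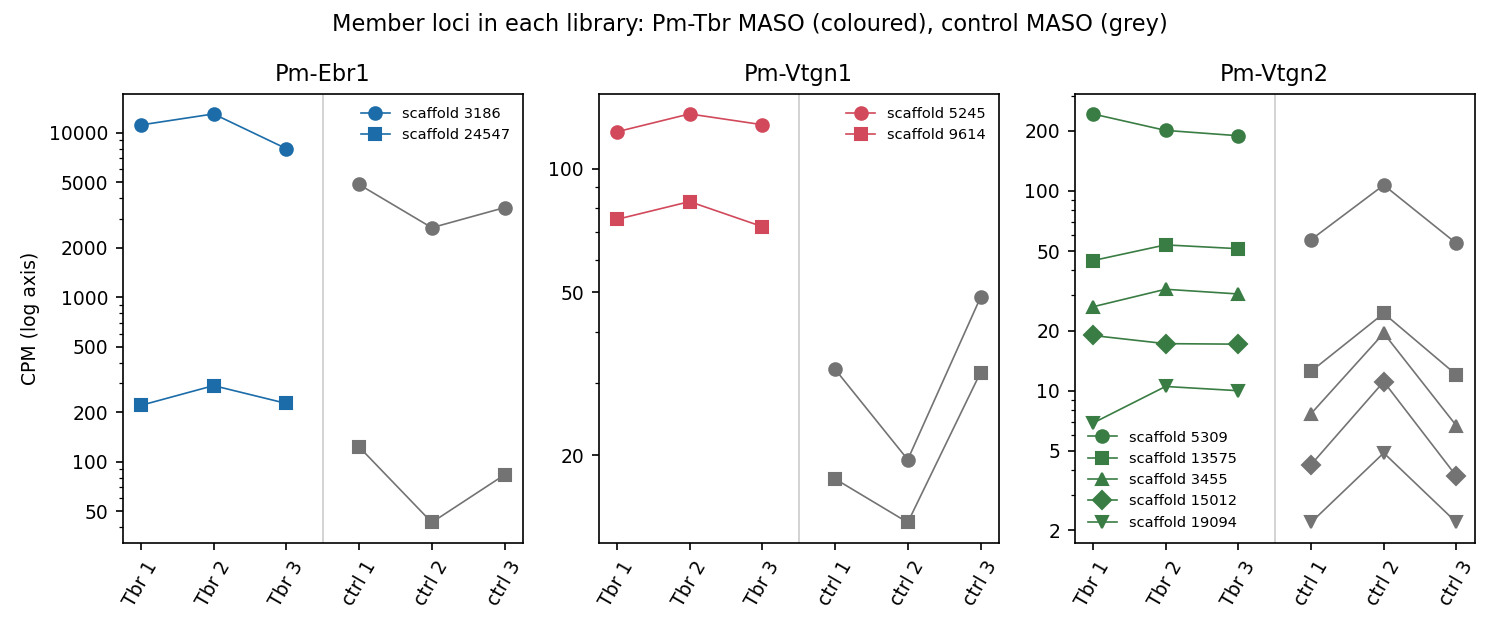
CPM of each member locus (log axis, 1 panel per gene) in the 3 Pm-Tbr MASO libraries (coloured) and the 3 control MASO libraries (grey); each marker shape is a locus, and thin lines join the points of a locus without implying an order of replicates. At each of the 9 loci the knockdown points lie above all control points, and control replicate 2 is the lowest control for Pm-Ebr1 and Pm-Vtgn1 but the highest for Pm-Vtgn2.

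Taken per kilobase of locus span, which includes introns and so is only a rough level, the main Pm-Ebr1 locus averaged 264 CPM per kb in Pm-Tbr MASO embryos and 90.1 CPM per kb in control embryos. The minor Pm-Ebr1 locus followed with 34.7 CPM per kb in Pm-Tbr MASO embryos and 11.8 CPM per kb in control embryos. The main Pm-Vtgn2 locus had 8.71 CPM per kb in Pm-Tbr MASO embryos and 3.0 CPM per kb in control embryos. The Pm-Vtgn1 loci had 3.59 and 4.99 CPM per kb in Pm-Tbr MASO embryos, against 0.929 and 1.36 CPM per kb in control embryos. The 4 other Pm-Vtgn2 loci lay between 1.75 and 2.41 CPM per kb in Pm-Tbr MASO embryos and between 0.593 and 0.913 CPM per kb in control embryos.

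Over the 9 loci the log2 fold changes ran from 1.40 to 1.95 with a median of 1.57, which is 2.63-fold to 3.85-fold, while the median over all 44120 tested loci was 0.01. In the quasi-likelihood test of edgeR, 5 of the 9 loci were called at an adjusted p of 0.05, namely 1 of 2 for Pm-Ebr1, 2 of 2 for Pm-Vtgn1 and 2 of 5 for Pm-Vtgn2. In that test 2.28% of all tested loci were called and 1.36% were called higher. In a fit with replicate number as a block, 9 of 9 members were called, where 10.1% of all tested loci were. Nothing is read from these counts, since the same contrast chose the names. The member just inside the threshold was the Pm-Vtgn2 locus on scaffold 13575, with a log2 fold change of 1.62, and the member just outside it was the minor Pm-Ebr1 locus, with 1.57. All 9 loci had every knockdown library above every control library, as did 13.3% of the 44120 tested loci. The authors' deposited table gave these 9 loci log2 fold changes of 1.43 to 2.0.

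**Figure D2:**
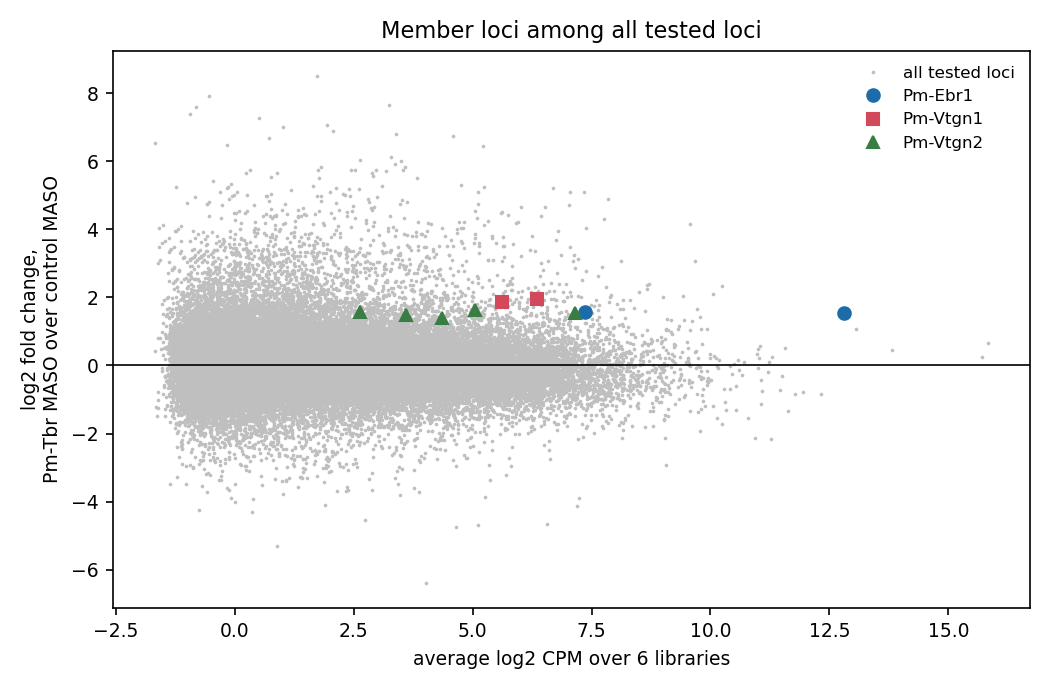
Log2 fold change of Pm-Tbr MASO over control MASO against the average log2 CPM over the 6 libraries for 44120 tested loci (grey) and the 9 member loci (coloured by gene). The members sit in a narrow band from 1.40 to 1.95 over a wide range of levels, with the main Pm-Ebr1 locus far to the right.

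The 3 genes differed in how they varied among the control libraries. These control values also entered the contrast that chose the names, so the order is a description. All 5 Pm-Vtgn2 loci were highest in control MASO replicate 2, whereas both Pm-Ebr1 loci and both Pm-Vtgn1 loci were lowest there. On the log2 scale the Pm-Vtgn2 loci stood 0.62 to 0.97 above their control mean in control MASO replicate 2, while the Pm-Ebr1 and Pm-Vtgn1 loci lay between -0.83 and -0.43 relative to theirs. Pm-Ebr1 and Pm-Vtgn1 also differed from each other, since control MASO replicate 1 was highest for both Pm-Ebr1 loci and control MASO replicate 3 for both Pm-Vtgn1 loci. These are single libraries, and the order was not tested.

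The ratio of knockdown to control within same-numbered libraries holds the same control values and follows the same split. Libraries of the same number deviated together from their group means across all loci, and they are taken as pairs. In pair 2 the log2 ratio was 2.30 and 2.76 at the Pm-Ebr1 loci and 2.80 and 2.60 at the Pm-Vtgn1 loci, the largest of the 3 pairs at each of these 4 loci. At the Pm-Vtgn2 loci the ratio in pair 2 was the smallest of the 3 pairs, between 0.64 and 1.14. In pair 1 the ratios were 1.20 and 0.84 for Pm-Ebr1, 1.93 and 2.10 for Pm-Vtgn1 and 1.65 to 2.15 for Pm-Vtgn2. In pair 3 they were 1.19 and 1.44, 1.40 and 1.18, and 1.79 to 2.2 for the same genes. All 27 ratios were above 0, which follows from the groups not overlapping at any member locus, so nothing is read from this count. The median over all tested loci, with 0.5 CPM added to each value, was -0.01, 0.02 and 0.005 in pairs 1, 2 and 3.

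**Figure D3:**
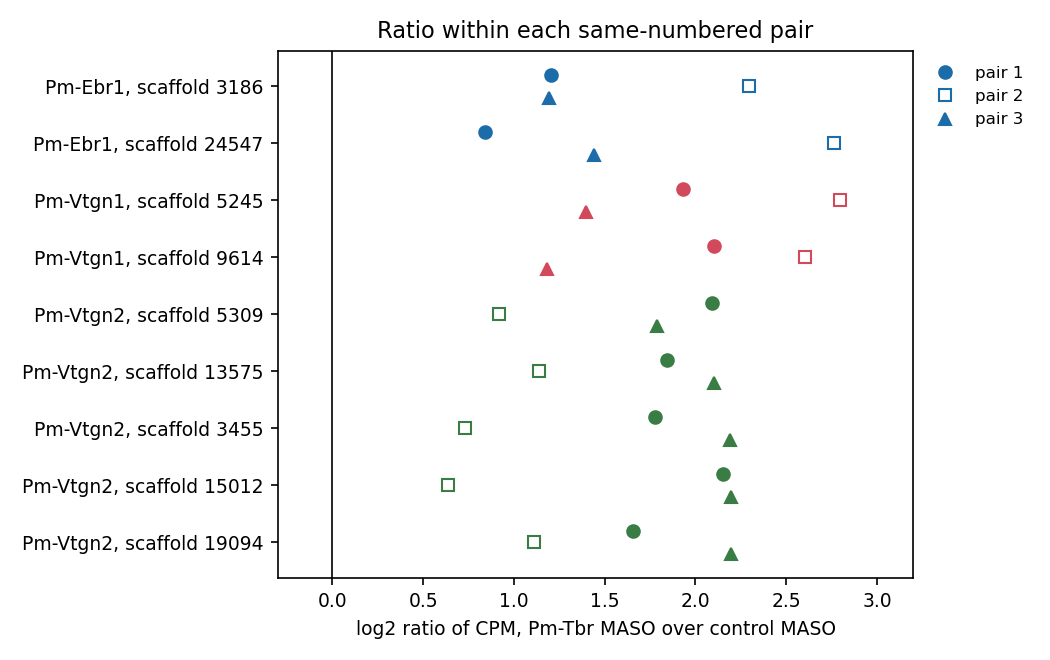
Log2 ratio of CPM, Pm-Tbr MASO over control MASO, in each same-numbered pair of libraries (filled circle, pair 1; open square, pair 2; filled triangle, pair 3) for the 9 member loci, coloured by gene. The open squares lie furthest right for Pm-Ebr1 and Pm-Vtgn1, from 2.30 to 2.80, and furthest left for Pm-Vtgn2, from 0.64 to 1.14.

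The members varied less among knockdown libraries than among control libraries. The coefficient of variation was 4.79% to 23.6% in the Pm-Tbr MASO group, with a median of 10.2%, and 30.2% to 64.5% in the control MASO group, with a median of 45.5%. Over 17165 loci at least as abundant as the lowest member, its median was 22.8% in the Pm-Tbr MASO group and 21.9% in the control MASO group. The coefficient was larger in the control group at 9 of 9 member loci and at 49.0% of 44116 tested loci. The spread and the lower control means entered the contrast that chose the names, so nothing is read from this count.

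Loci of the same name were nearer to each other in profile than to loci of the other 2 names. Whether same-named loci are pieces of 1 gene cannot be told from these files, so their likeness may not be independent. The likeness of a pair of loci was measured as the root mean square difference of their log2 CPM profiles over the 6 libraries, each centred on its own mean, so that 0 is an identical profile. The 2 Pm-Vtgn1 loci were 0.12 apart, and of 12494 other named loci none was closer to the main Pm-Vtgn1 locus. For Pm-Ebr1, 28 other named loci were closer to the main locus than the minor one was. For Pm-Vtgn2, 3, 3, 10 and 31 were closer to the main locus than the loci on scaffolds 13575, 15012, 3455 and 19094. Any pair of the 5 Pm-Vtgn2 loci was 0.13 to 0.30 apart, and the 2 Pm-Ebr1 loci 0.26. Between names the distances were larger, at 0.39 to 0.46 for Pm-Ebr1 with Pm-Vtgn1, 0.57 to 0.92 for Pm-Ebr1 with Pm-Vtgn2 and 0.67 to 0.88 for Pm-Vtgn1 with Pm-Vtgn2. Within the control libraries alone, the distances were 0.01 to 0.25 among Pm-Vtgn2 loci and 0.89 to 1.21 between Pm-Vtgn1 and Pm-Vtgn2. The 2 vitellogenin names were thus farther apart in profile than Pm-Vtgn1 was from Pm-Ebr1. The distance includes the difference between the groups that chose the members. The main Pm-Vtgn1 locus held 62.0% to 63.9% of its gene's counts in knockdown libraries and 58.8% to 64.9% in control libraries. The main Pm-Vtgn2 locus held 63.4% to 71.5% in knockdown libraries and 64.1% to 69.0% in control libraries. Of the smaller loci, the minor Pm-Ebr1 locus held 1.93% to 2.74% in knockdown libraries and 1.59% to 2.47% in control libraries. The Pm-Vtgn2 locus on scaffold 19094 held 2.03% to 3.36% in knockdown libraries and 2.62% to 2.94% in control libraries. The one on scaffold 15012 held 5.47% to 5.74% in knockdown libraries and 4.72% to 6.67% in control libraries.

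The named loci nearest in profile to the main Pm-Ebr1 locus were Pm-Swap70, Pm-Atp8b2, Pm-Vwd/Egf/Fn3_1, Pm-Cara14LA and Pm-Fadd, at distances of 0.12 to 0.19. Among those nearest to the main Pm-Vtgn1 locus were 1 locus of Pm-Srcr28, 2 loci of the zinc finger name Pm-Klf11, and Pm-Slc1, at 0.32 to 0.34. Those nearest to the main Pm-Vtgn2 locus were Pm-Rpn2, the homeobox name Pm-IrxB, Pm-Rdh11_5, Pm-My7A and Pm-R/Ptp/B, at 0.13 to 0.21. The median distance of all candidates was 0.95, 1.18 and 0.97 for the 3 genes in that order. None of these nearest loci carries a name from the 6 gene lists described below, and Pm-Srcr28 is a scavenger receptor name of the coelomocyte list.

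The genes beside the members had log2 fold changes between -0.58 and 0.53, below every member, but this contrast chose the members. The deposited table holds 9 other loci on 4 of the 9 member scaffolds, none of which overlaps a member. None of the 9 was called by the quasi-likelihood test of edgeR, by its exact test or by DESeq2, with or without the block in the first, and none had an unadjusted p under 0.05. Beside the main Pm-Ebr1 locus, Pm-Acadm, a fatty acid oxidation enzyme, averaged 41.6 CPM in Pm-Tbr MASO embryos and 38.0 CPM in control embryos (log2 fold change 0.13). Pm-Imp3 on the same scaffold had a log2 fold change of 0.44. Beside a Pm-Vtgn2 locus on scaffold 3455, Pm-Cnot2 and Pm-Kctd1_2 had log2 fold changes of -0.07 and 0.03.

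The remaining loci named after the egg bindin receptor lay far below the main Pm-Ebr1 locus and pointed in both directions. The 2 loci named Pm-Ebr1_5, of which the one on scaffold 1979 was added after its values were seen, had 35, 9.73 and 13.2 CPM and 4.14, 9.40 and 3.80 CPM in the Pm-Tbr MASO libraries, against 28.2, 22.2 and 13.9 CPM and 6.41, 28.2 and 22.3 CPM in the control MASO libraries. At both loci the groups overlapped, with log2 fold changes of -0.15 ± 0.49 and -1.71 ± 0.58. The second did not pass the quasi-likelihood test of edgeR (adjusted p = 0.153) or its exact test (0.0605), and was called lower with the block (0.0372) and by DESeq2 (0.0295). Pm-Eggbr1L_1 had 123, 66.5 and 80.6 CPM in the Pm-Tbr MASO libraries, against 58.0, 36.4 and 47.6 CPM in the control MASO libraries, at its most abundant locus, on scaffold 3899. Its log2 fold change of 0.925 ± 0.295 did not pass without the block (adjusted p = 0.135) and was called higher with it (adjusted p = 0.0288, edgeR), but not by the exact test (0.083) or DESeq2 (0.0655). The Pm-Eggbr1L_1 locus on scaffold 16128 averaged 20.8 CPM in Pm-Tbr MASO embryos and 11.6 CPM in control embryos, without overlap. Its log2 fold change was 0.844 (adjusted p = 0.134, edgeR). Those on scaffold 5811 (Pm-Eggbr1L_1) and scaffold 1496 (Pm-Eggbr1L), added after their values were seen, overlapped, with log2 fold changes of 0.208 and 0.170. None of these was called with the block, by the exact test or by DESeq2. The differences of all these loci from Pm-Ebr1 itself were not tested, since the contrast chose Pm-Ebr1.

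Of all 22 loci in the list of egg surface and fertilization names, members apart, none passed the quasi-likelihood test of edgeR. Over all tested loci 2.28% did. At an unadjusted p under 0.05 there were 3, against 8832 of all 44120 tested loci. The exact test of edgeR called 0, against 2037 higher and 1357 lower over all tested loci. DESeq2 called 1, against 2337 higher and 1793 lower of 39775. Beside the bindin receptor names the list held Pm-Bindin, the zona pellucida names Pm-Zp2 and Pm-Zpd, whose relatives form egg coats in vertebrates, and Pm-Rej5, Pm-Rej7 and Pm-Rej10, named after the sea urchin sperm receptor for egg jelly. The list's median log2 fold change was 0.11, against 0.01 over all tested loci. The Pm-Zpd locus on scaffold 871 averaged 13.2 ± 1.93 CPM in Pm-Tbr MASO embryos and 19.0 ± 0.553 CPM in control embryos (SD, n = 3 each), which did not pass (adjusted p = 0.253 in edgeR).

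Among genes that handle yolk and lipoproteins, 1 of 25 loci rose and 24 did not pass, members apart. Over all loci the share called was 2.28%. At an unadjusted p under 0.05 there were 8 loci, against 8832 of all 44120 tested loci. The exact test of edgeR called 6, against 2037 higher and 1357 lower over all tested loci. DESeq2 called 7, against 2337 higher and 1793 lower of 39775. The rise was at Pm-Mttp, the microsomal triglyceride transfer protein, on scaffold 397 from 317 to 19227. It had 131, 45.6 and 75.5 CPM in the Pm-Tbr MASO libraries, against 20.9, 14.8 and 8.46 CPM in the control MASO libraries, with a log2 fold change of 2.52 ± 0.47 (adjusted p = 0.0386, quasi-likelihood test of edgeR). The call was lost on leaving out any 1 of the 6 libraries (adjusted p = 0.0599 to 0.150). The log2 fold change stayed between 2.03 and 2.85. Over all tested loci, calls in these fits fell from 601 higher and 407 lower to 0 to 338 higher and 0 to 141 lower. With all 6 libraries this locus was called with the block (adjusted p = 0.00763, edgeR), by the exact test (5.87e-05) and by DESeq2 (7.05e-06). The other Pm-Mttp locus, on scaffold 8133, had 58.1, 17.7 and 30.4 CPM in knockdown libraries, against 9.55, 5.95 and 2.98 CPM in control libraries. It missed the threshold (adjusted p = 0.0558, edgeR) and was called higher with the block (adjusted p = 0.00951), by the exact test (0.000753) and by DESeq2 (0.000107).

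Pm-Apob, the apolipoprotein B name, had 24.7, 64.2 and 261 CPM in the Pm-Tbr MASO libraries, against 7.59, 15.3 and 14.8 CPM in the control MASO libraries. Its groups did not overlap, but replicate 3 was far above the other knockdown libraries, and the log2 fold change of 3.22 ± 0.80 did not pass the quasi-likelihood test of edgeR (adjusted p = 0.0765). It was called with the block (0.0185), by the exact test (0.00229) and by DESeq2 (0.000122). The locus named Pm-ApobL, added after its values were seen because of its name, overlapped between groups, with 4.90, 9.63 and 23.6 CPM in Pm-Tbr MASO libraries and 12.7, 7.67 and 8.82 CPM in control MASO libraries. The Pm-Lrp6L_3 locus on scaffold 10, a name for a lipoprotein receptor-related protein of the Wnt pathway, had 52.2 ± 12.1 CPM in Pm-Tbr MASO embryos and 24.1 ± 4.68 CPM in control embryos (SD, n = 3 each), which did not pass the quasi-likelihood test of edgeR (adjusted p = 0.0672). It was called higher with the block (0.0171), by the exact test (0.0138) and by DESeq2 (0.00471). The other Pm-Lrp6L_3 locus, on scaffold 42, was added after its values were seen. It averaged 91.8 CPM in Pm-Tbr MASO embryos and 71.9 CPM in control embryos (log2 fold change 0.353, adjusted p = 0.507, edgeR). With the block, 5 loci of the list were called, all higher, where 10.1% of all tested loci were called. The list's median log2 fold change was 0.35, with 18 loci above 0 and 7 below.

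3 further genes of this list were chosen for mention after their values were seen, because of their link to yolk. Pm-Myp, the major yolk protein name, had 38.4, 36.4 and 69.7 CPM in the Pm-Tbr MASO libraries, against 18, 24.8 and 21.1 CPM in the control MASO libraries, and missed the quasi-likelihood threshold in edgeR (adjusted p = 0.0874). It was called higher with the block (0.0394), by the exact test (0.0225) and by DESeq2 (0.0137). Pm-Tf, the transferrin name, had 84.1, 124 and 138 CPM in knockdown libraries, against 176, 129 and 216 CPM in control libraries, which overlapped. Pm-Lrp8, a lipoprotein receptor whose relatives take up vitellogenin in birds, had 505, 496 and 455 CPM in knockdown libraries, against 562, 525 and 460 CPM in control libraries, at its more abundant locus. Its log2 fold change was -0.09 ± 0.19.

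**Figure D4:**
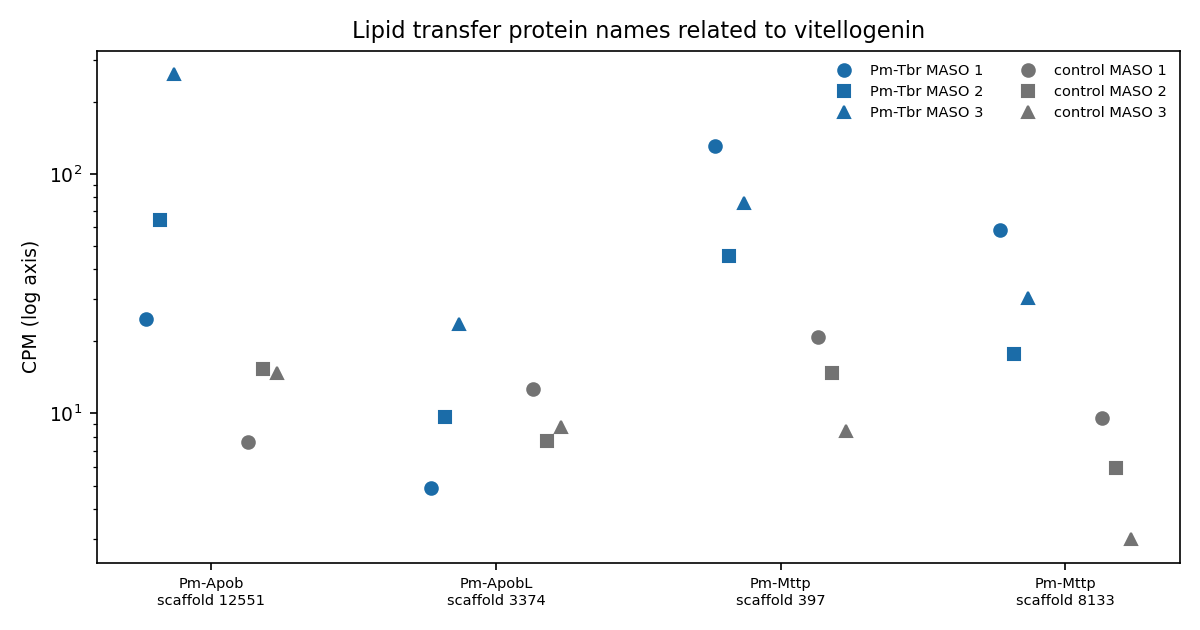
CPM (log axis) at the loci named Pm-Apob, Pm-ApobL and Pm-Mttp in each Pm-Tbr MASO library (blue, left in each column) and each control MASO library (grey, right), with marker shape giving the replicate number. The groups are apart at Pm-Apob and at both Pm-Mttp loci and overlap at Pm-ApobL.

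Of 54 loci for lysosomal enzymes and acidification, which break down stored yolk in oocytes and embryos, 1 rose and 53 did not pass. Over all tested loci 1.36% were called higher and 2.28% in either direction. The exact test of edgeR called 1 of the 54, against 2037 higher and 1357 lower of all 44120 tested loci. DESeq2 called 3, against 2337 higher and 1793 lower of 39775. The Pm-Man2b1 locus on scaffold 3539 from 44465 to 71523, named for a lysosomal mannosidase, had 112, 90.9 and 120 CPM in the Pm-Tbr MASO libraries, against 44.1, 50.9 and 51.7 CPM in the control MASO libraries, with a log2 fold change of 1.14 ± 0.21 (adjusted p = 0.0380, edgeR). Its call too was lost on leaving out any 1 library (adjusted p = 0.0750 to 0.145). It was called with the block (0.0175, edgeR), by the exact test (0.00213) and by DESeq2 (0.000326). Another Pm-Man2b1 locus, on the same scaffold from 71585 to 87056, was added after its values were seen. It averaged 27.4 CPM in Pm-Tbr MASO embryos and 26.6 CPM in control embryos (log2 fold change 0.04, adjusted p = 0.953, edgeR). Pm-Scpep1, a serine carboxypeptidase name, and Pm-Ppt1_1, a thioesterase name, had log2 fold changes of 1.12 and 0.79, and Pm-Atp6v1b2, a subunit of the proton pump, one of -0.77, none of which passed without the block, and with it, and by DESeq2, Pm-Scpep1 was called higher and Pm-Atp6v1b2 lower. With the block 3 loci were called higher and 1 lower, where 10.1% of all tested loci were called, and the list's median was 0.20.

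The 3 other lists of maternal functions held 1 or 2 calls each in the quasi-likelihood test without the block, all lower. Of 24 loci of germline determinants, 1 fell and 23 did not pass, while the exact test of edgeR called 2 and DESeq2 called 3. Over all 44120 tested loci, the quasi-likelihood test called 601 higher and 407 lower, and the exact test 2037 higher and 1357 lower. DESeq2 called 2337 higher and 1793 lower of 39775. The fall was at the polyadenylation regulator Pm-Cpeb2, with 18.4, 24.4 and 22.0 CPM in the Pm-Tbr MASO libraries, against 83.3, 97.6 and 61.8 CPM in the control MASO libraries. Its adjusted p of 0.0224 in edgeR became 0.0511, 0.0934, 0.0718 and 0.0553 without control MASO replicate 1, control MASO replicate 2, knockdown replicate 1 and knockdown replicate 2 in turn. Pm-Cpeb2 was also called with the block (adjusted p = 0.00596, edgeR), by the exact test (6.83e-07) and by DESeq2 (9.39e-09). Pm-Bicc1, Pm-Tdrd7L and Pm-Tud, names of RNA-binding and Tudor proteins, had log2 fold changes of 1.10, 0.76 and 0.80, none of which passed. With the block Pm-Bicc1 and Pm-Tdrd7L were called higher (adjusted p = 0.0365 and 0.0484, edgeR), as they were by DESeq2 (0.0347 and 0.0298). In this list 2 loci were called higher and 1 lower with the block, where 10.1% of all tested loci were called.

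Of 50 loci of maternal RNA turnover, 2 fell and 48 did not pass, while the exact test of edgeR called 3 and DESeq2 called 4. Over all 44120 tested loci, the quasi-likelihood test called 601 higher and 407 lower, and the exact test 2037 higher and 1357 lower. DESeq2 called 2337 higher and 1793 lower of 39775. Both falls were at Pm-Lsm12L, an Lsm-domain name, on scaffold 229, with 19.8 ± 1.28 and 11.8 ± 0.618 CPM in Pm-Tbr MASO embryos, against 48.1 ± 4.28 and 31.2 ± 3.38 CPM in control embryos (SD, n = 3 each). Both calls were lost on leaving out any 1 library (adjusted p = 0.0581 to 0.115, edgeR). With all 6 libraries both were called by the exact test (0.000411 and 0.000214) and by DESeq2 (1.15e-05 and 3.52e-06). Pm-Btg4, an adaptor for clearing maternal RNA in mammals, had 971, 527 and 655 CPM in Pm-Tbr MASO libraries, against 296, 383 and 361 CPM in control MASO libraries, a log2 fold change of 1.05 ± 0.27 that missed the threshold (adjusted p = 0.0816, or 0.0595 with the block, in edgeR) and was called by the exact test (0.0218) and DESeq2 (0.0159). Pm-Lsm14A had a log2 fold change of -0.82 and was called lower with the block and by DESeq2. With the block 4 loci of this list were called, all lower, where 10.1% of all tested loci were called. The list's median without the block was -0.11.

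Of 31 loci of the egg-to-embryo cell cycle, 2 fell and 29 did not pass, while the exact test of edgeR called 2 and DESeq2 called 3. Over all 44120 tested loci, the quasi-likelihood test called 601 higher and 407 lower, and the exact test 2037 higher and 1357 lower. DESeq2 called 2337 higher and 1793 lower of 39775. Both falls were at the cyclin name Pm-Cycb3. Another Pm-Cycb3 locus, added after its values were seen, was not called by the exact test (adjusted p = 0.748) or DESeq2 (0.654). For the larger and the smaller of the 2 called loci, the exact test gave 3.01e-05 and 0.000934, and DESeq2 4.81e-06 and 9.37e-05. The larger locus had 149, 129 and 169 CPM in the Pm-Tbr MASO libraries, against 357, 413 and 549 CPM in the control MASO libraries. Its adjusted p of 0.0285 in edgeR lay between 0.0487 and 0.106 on leaving out 1 library, and the call was lost without control MASO replicate 2, control MASO replicate 3, knockdown replicate 1 or knockdown replicate 2. The smaller locus, which lies inside the span of the larger one, averaged 2.33 ± 0.220 CPM in Pm-Tbr MASO embryos and 8.01 ± 2.02 CPM in control embryos (SD, n = 3 each), and its call was lost without any 1 library (adjusted p = 0.0599 to 0.138, edgeR). Of 3 loci of Pm-Wee1_1, a kinase that restrains the mitotic kinase, the 2 with the smallest adjusted p had log2 fold changes of 1.12 and 0.90 that missed the threshold, and the first was called higher with the block (adjusted p = 0.0378, edgeR) and by DESeq2 (0.0401). This list's median was -0.48, against 0.01 over all tested loci.

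**Figure D5:**
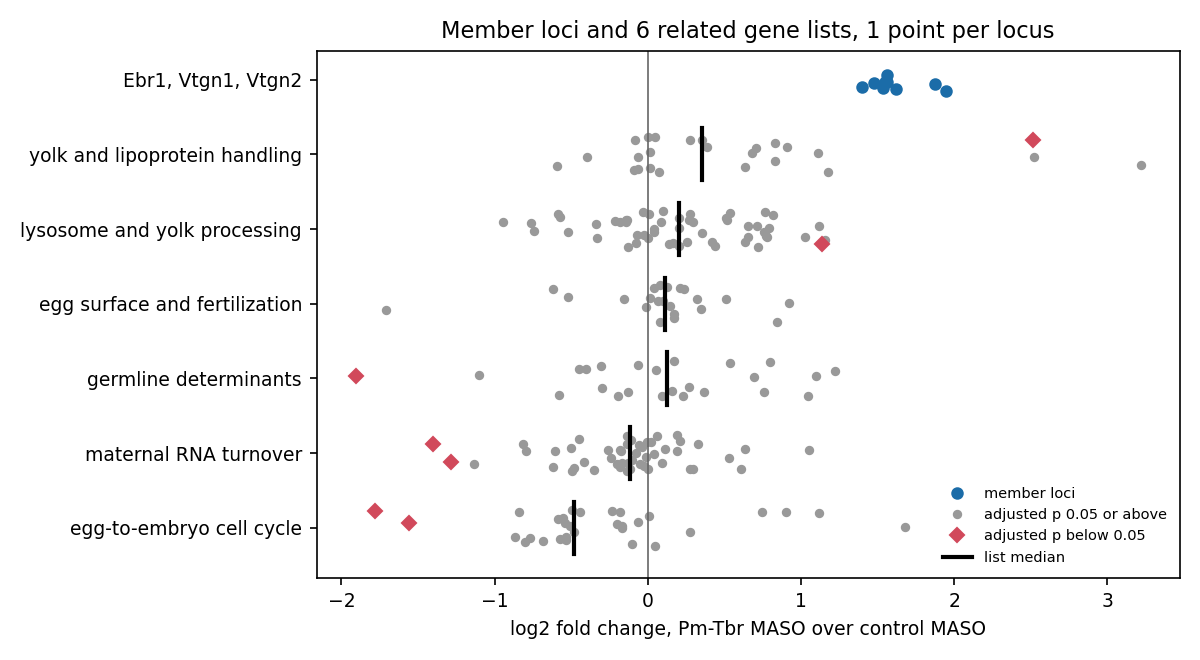
Log2 fold change of Pm-Tbr MASO over control MASO for the 9 member loci (blue, top) and for each locus of 6 related gene lists; grey points did not pass, red diamonds had an adjusted p below 0.05 in edgeR, and bars mark list medians. The members lie from 1.40 to 1.95, and the list medians run from -0.48 to 0.35. This contrast chose the members, so nothing is read from their place above the medians. In the lists, 3 yolk and lipoprotein loci and 1 cell cycle locus lie at or above the lowest member.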

How the data were processed

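RNA of pooled embryos was read from TruSeq libraries, per the labels' protocols. For each sample the authors deposited raw counts over 80165 loci, plus 5 summary lines, which held 49.0% to 50.6% of lines and stayed out of library sizes. The submitters' processing notes name Cufflinks 2.2.1 and TopHat2 2.0.12, HTSeq 0.6.1p1, CASAVA 1.8, SAMtools, and edgeR 3.10.5. Build and strandedness are not stated in them. The authors' deposited table covers 27630 loci with a log2 fold change, a log2 CPM level, the F score, a p-value and its false discovery rate, and supplied names and positions. No sequence was used.

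All counts went into edgeR 4.0.16 (R 4.3.3) and its quasi-likelihood F test, with TMM scaling, group as the only term and Benjamini-Hochberg adjustment at 0.05 over the 44120 loci kept by filterByExpr. The SE is the size of the log2 fold change divided by the square root of F. Profiles used log2 CPM with a prior count of 2. Names were given to all member loci, to up to 4 loci per list with the smallest adjusted p, and to the 5 most similar named loci per gene, of average log2 CPM at least 1. Exceptions are stated, and 1 locus that the rule names is not reported here. Members, lists and tests were chosen with earlier results of these data known. Alternatives were each library left out, the edgeR exact test, DESeq2 1.42.0, 2 other scalings, 2 other filters and the replicate block.

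The replicate numbers were taken as pairs from the counts, not from a stated batch: deviations from group means correlated at 0.531, 0.225 and 0.56 for like numbers across 44120 loci, against -0.47 to -0.0489 for unlike ones.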

Additional observations from a re-analysis of the deposited data

How the results depend on the processing

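All 9 member loci kept a positive log2 fold change under every alternative run. It lay between 1.13 and 2.31 with 1 library left out and between 1.35 and 2.04 otherwise, the second range covering the block, both other scalings, both other filters, DESeq2, the exact test and, chosen after seeing the data, scaling without the members. It moved by more than the replicate SD only at 2 Pm-Vtgn2 loci, to 2.05 on scaffold 3455 and 2.15 on scaffold 15012 without control MASO replicate 2; their lowest values were 1.13 and 1.21. Over all loci the calls were 601 higher and 407 lower, and over the 6 lists 2 higher and 5 lower. With the replicate block they were 2574 and 1881, and 12 and 9 in the lists. With DESeq2 they were 2337 and 1793, and 13 and 8. The exact test gave 2037 and 1357, with 9 higher in the lists. Keeping loci with a CPM above 2 in at least 3 libraries gave 624 lower over all and 4 higher in the lists. With 1 library left out, calls ran from 0 to 338 higher and 0 to 141 lower, with 0 higher and 0 to 2 lower in the lists; there were 0 over all without control MASO replicate 2, against 6643 loci at an unadjusted p under 0.05 (quasi-likelihood test of edgeR, the one tool run on 5 libraries). Of the 9 members 0 to 2 were called in these fits, against 5 as reported, 6 with the CPM filter, and 9 with the block, the exact test or DESeq2. The cause of these moves was not tested. Counting the summary lines in the denominator lowered each share of reads, to 0.409% to 0.715% in Pm-Tbr MASO and 0.136% to 0.247% in control MASO libraries for Pm-Ebr1. Depth, and the reads that aligned to several places, limit what the small Pm-Vtgn2 loci can show.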
